A study of Mus musculus with 16 samples.

Results

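Mammary adipose tissue of mice that stayed obese (DIO-HFD) was compared with that of lean controls (CON-LFD) across all measured genes, using 8 of the 16 RNA-Seq libraries of the series, 4 in each group, chosen by group label alone. CON-LFD mice received the low-fat diet D12450J (10% of kcal from fat) throughout. DIO-HFD mice received the high-fat diet D12492 (60% of kcal from fat) and remained on it to the end. All were wild-type female C57BL/6N mice, 8 weeks old on arrival, that were given their diet after 1 week of acclimatization, underwent a sham operation after 15 weeks on diet, received an injection of E0771 mammary tumor cells into the 4th mammary fat pad 22 weeks after randomization and were euthanized 4 weeks later. The profiled tissue was the 9th fat pad, on the side without the injection. The remaining 8 libraries came from obese mice that changed to low-fat food after sham surgery (DIO-LFD, 4) or after a vertical sleeve gastrectomy (DIO-VSG, 4) and served for the spread and for a closing comparison. Because DIO-HFD mice were still eating the high-fat diet when tissue was taken, obesity and current diet cannot be told apart.

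The white fat of the mammary gland stores triglyceride in adipocytes that make fatty acids from glucose under insulin, esterify them onto glycerol and release them again by lipolysis. Scattered among the adipocytes lie blood vessels, fibroblast-like progenitors, macrophages, the milk ducts with their luminal and basal epithelium and, in some pads, a lymph node. In obesity such depots are known for enlarged adipocytes, macrophages gathered around dying adipocytes, matrix deposition and reduced fatty acid synthesis, and a high-fat diet by itself supplies fatty acids that lower the need to make them.

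The 8 libraries held 46907377 to 57610899 reads each, the range of the whole series, and values are given as normalized counts, that is, reads divided by the size factor of the library. The labels name the tissue as normal contralateral mammary tissue but also carry the tumor line as cell type. Adipoq, the adipocyte hormone adiponectin, was at 78362, 92919, 59538 and 123530.0 normalized counts in CON-LFD and at 30428, 87069, 100491 and 60973 in DIO-HFD, and epithelial Epcam at 9583, 9092, 5635 and 5423 normalized counts in CON-LFD and at 3315, 7359, 2441 and 4584 in DIO-HFD, so both adipocytes and ducts were represented in every library. In bulk tissue, fewer cells of a type and less RNA per cell cannot be told apart. Some libraries stood apart in cells other than adipocytes, and this is described before the results that it touches. Each library was scored for a list by averaging, over the list's genes, the log2 value minus the gene's mean over 16 libraries. The T cell score was −0.22, −3.1, 1.55 and −2.88 in CON-LFD and 2.17, −2.16, −3.18 and 0.96 in DIO-HFD, and the lymph node stroma score was 0.0096, −4.17, 1.58 and −3.09 in CON-LFD and 2.09, −1.69, −4.38 and 1.12 in DIO-HFD. High and low lymphoid libraries therefore occurred in both groups. Skeletal muscle genes were highest in CON-LFD replicate 4, with scores of −0.10, 0.12, −1.33 and 3.51 in CON-LFD and −1.59, −1.0, −1.58 and −1.5 in DIO-HFD. Keratinocyte genes were highest in DIO-HFD replicate 4, with scores of −0.44, −1.02, −0.31 and −0.0038 in CON-LFD and −0.30, 0.48, −0.13 and 3.52 in DIO-HFD. DIO-HFD replicate 1 had the lowest adipocyte score, the 8 values being 0.25, 0.50, −0.23 and 0.57 in CON-LFD and −1.24, 0.17, 0.094 and −0.20 in DIO-HFD. The part of these differences between libraries in the results that follow was not tested.

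**Figure D1:**
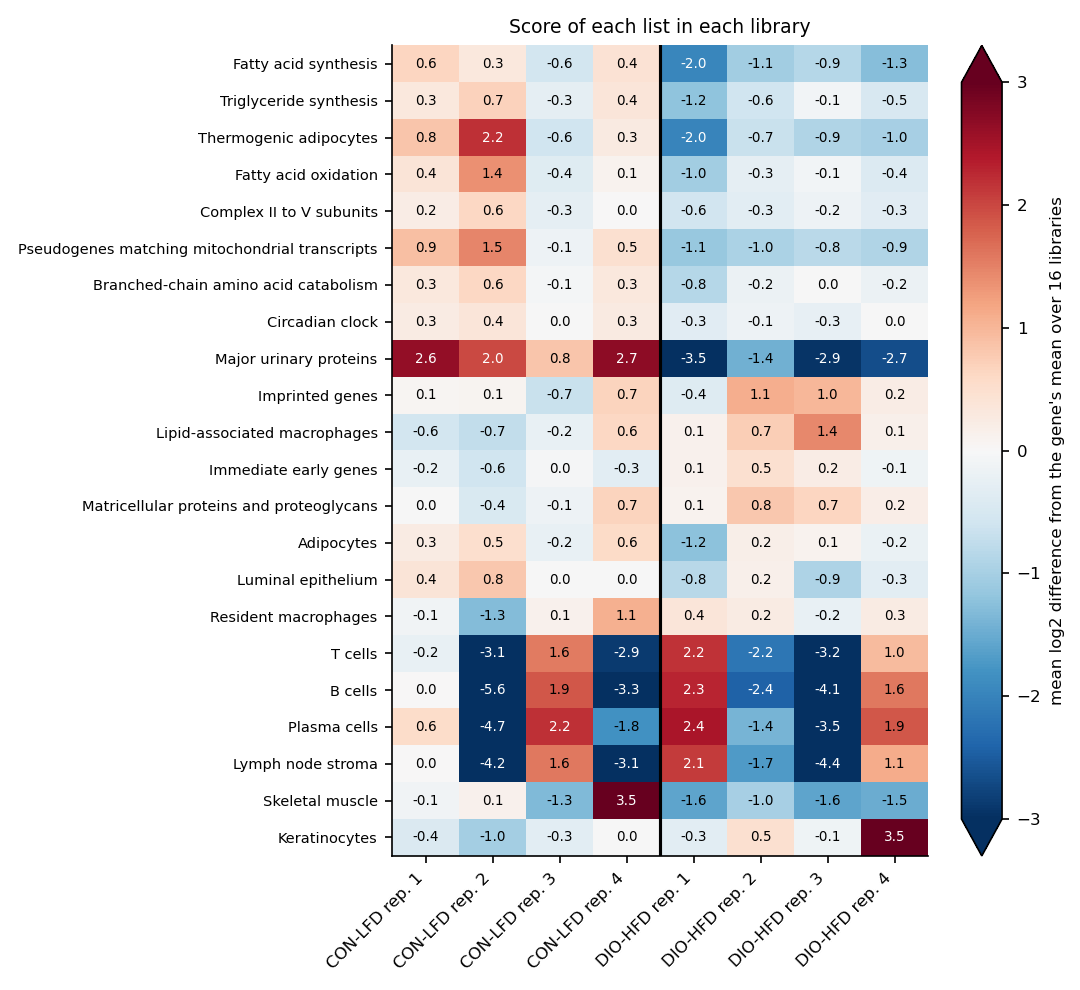
Score of 22 gene lists (rows) in each of the 8 libraries (columns, the vertical line separating CON-LFD on the left from DIO-HFD on the right), as the mean log2 difference from each gene's mean over 16 libraries; colors are capped at 3 on either side. The major urinary protein row separates the groups most widely. The rows of pseudogenes matching mitochondrial transcripts and of fatty acid synthesis also separate them, as do, by little, those of thermogenic adipocytes and the circadian clock. The lymphoid rows vary within both groups, and 1 library of each group stands apart in skeletal muscle or keratinocyte genes.

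Across the 21218 genes tested with limma, 11192 were higher and 10026 lower in DIO-HFD on average, with a median log2 fold change of 0.021. At an adjusted P value below 0.05, 8 genes were called (0.0377% of those tested), 5 higher and 3 lower. Without adjustment, 1109 higher genes (5.23%) and 1626 lower genes (7.66%) had a P value below 0.05. The groups did not overlap, so that each DIO-HFD library lay on the same side of each CON-LFD library, for 374 higher genes (1.76%) and 637 lower genes (3.0%). Among these, 103 of the higher and 186 of the lower genes differed by more than 1 on the log2 scale. By type, 243 of the 374 higher genes and 420 of the 637 lower genes were protein coding, and 74 and 82 were pseudogenes. Pseudogenes, copies of genes that have usually lost their coding function, therefore had non-overlapping groups in 4.64% and 5.14% of the 1596 tested, against 1.57% and 2.72% of the 15463 protein-coding genes. When library read totals instead of size factors set the scale, which raised the median of all genes to 0.16, the split turned to 2696 higher and 830 lower genes at an unadjusted P value below 0.05, and to 1060 higher and 375 lower genes with non-overlapping groups. The exon length of the protein-coding genes was similar in both directions, with a median of 4314 bases for the higher, 3942 for the lower and 4261 for all tested.

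**Figure D2:**
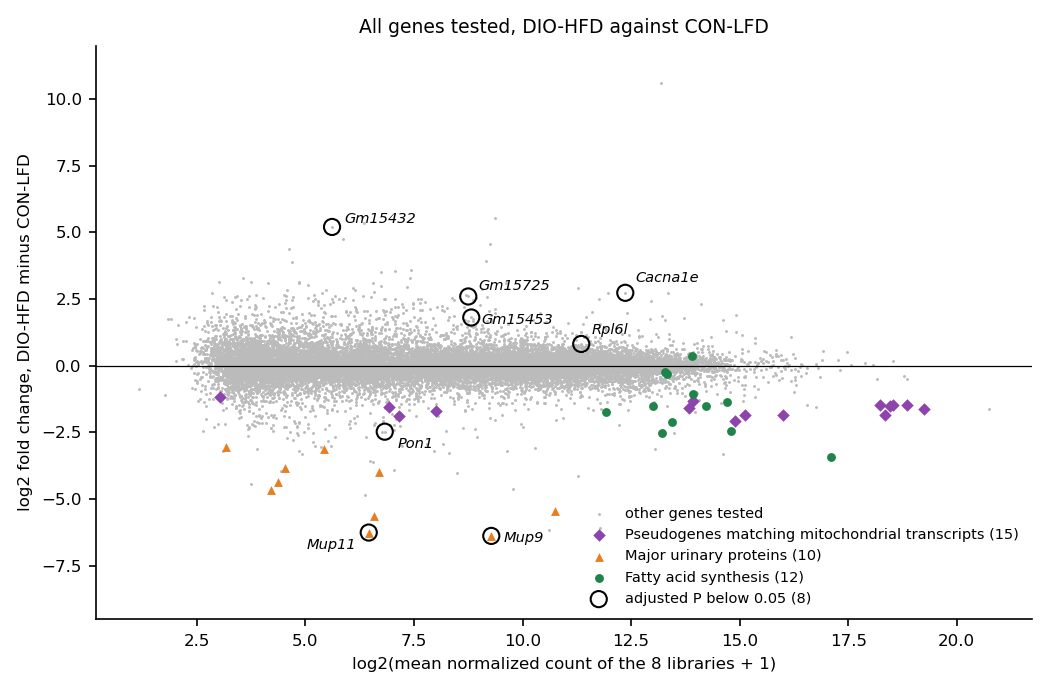
Log2 fold change of DIO-HFD minus CON-LFD (vertical axis) against the log2 mean normalized count of the 8 libraries (horizontal axis) for the 21218 genes tested. Open circles mark the 8 genes past an adjusted P value of 0.05. The 10 major urinary protein genes and the 15 pseudogenes that match mitochondrial transcripts lie below 0, as do 11 of the 12 fatty acid synthesis genes.

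Major urinary proteins are small lipocalins that carry pheromones and hydrophobic ligands and are made mainly in the liver, with lower expression in other tissues that include fat. The genes form a cluster of near-identical copies on chromosome 4. The stretches of 250 bases upstream of the start of Mup9, Mup11 and Mup10 are shown because these members fell, or were lower, together (RefSeq, GRCm38.p6, read 5′ to 3′ on the minus strand). They lie upstream of the RefSeq starts, so their likeness does not show how reads of the transcripts were assigned. Capitals mark a TATA box (TATANAA) or a CCAAT box (CCAAT), searched on both strands, motifs that occur in 10.9% and 34.5% of the 27025 upstream windows of the same length.
Mup9, chr4:60421953-60422202: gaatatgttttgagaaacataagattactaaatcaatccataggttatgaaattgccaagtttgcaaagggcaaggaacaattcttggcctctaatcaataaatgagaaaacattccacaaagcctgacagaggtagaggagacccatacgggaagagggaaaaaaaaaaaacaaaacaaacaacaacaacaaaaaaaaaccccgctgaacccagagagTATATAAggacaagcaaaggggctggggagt
Mup11, chr4:60662396-60662645: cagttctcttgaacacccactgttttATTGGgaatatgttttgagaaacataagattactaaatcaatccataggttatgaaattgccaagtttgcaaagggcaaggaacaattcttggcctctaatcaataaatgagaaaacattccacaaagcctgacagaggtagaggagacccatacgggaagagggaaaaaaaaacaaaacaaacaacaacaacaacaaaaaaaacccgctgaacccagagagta
Mup10, chr4:60582156-60582405: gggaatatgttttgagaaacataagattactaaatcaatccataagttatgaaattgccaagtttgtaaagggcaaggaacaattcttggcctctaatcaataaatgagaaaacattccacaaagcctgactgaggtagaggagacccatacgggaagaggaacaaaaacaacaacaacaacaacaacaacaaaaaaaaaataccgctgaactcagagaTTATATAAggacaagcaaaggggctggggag
Aligned to each other, Mup9 and Mup11 shared 217 of 222 positions, Mup9 and Mup10 shared 235 of 250 and Mup11 and Mup10 shared 208 of 222. The Mup11 window is shifted along the shared sequence, because its RefSeq start lies further upstream, and TATANAA falls outside it. In Mup10 the 8 capitals are 2 overlapping matches, 1 on each strand.

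All 10 Mup genes tested were lower in DIO-HFD, and for 9 of them the groups did not overlap, against 3.0% of all genes. Mup9 (GENCODE M21, GRCm38, chromosome 4, 60418046 to 60421952, minus strand) was at 1521, 743, 637 and 1988 normalized counts in CON-LFD and at 4.63, 46.5, 4.37 and 19.7 in DIO-HFD. Each CON-LFD library lay more than 10 times above each DIO-HFD library, and Mup9 fell (log2 change −6.38 with an SE of 0.93, adjusted P = 0.0454). Mup11 (chromosome 4, 60658466 to 60662411, minus strand) was at 138, 209.9, 82.1 and 258 normalized counts in CON-LFD and at 0, 3.32, 0 and 3.28 in DIO-HFD, with no read in DIO-HFD replicates 1 and 3, and it also fell (log2 change −6.26 with an SE of 0.95, adjusted P = 0.0454). With so few reads in DIO-HFD the size of its log2 change depends on the pseudocount: it was −3.87 with a pseudocount of 10 and −2.32 with the deposited variance-stabilized values, and Mup11 was past the threshold in neither. Mup10, the most abundant of the family in this tissue, was at 3699, 2963, 1648 and 4862 normalized counts in CON-LFD and at 22.2, 329.8, 29.5 and 99.1 in DIO-HFD. It did not pass the threshold (log2 change −5.46 with an SE of 0.98, adjusted P = 0.0676), and its highest DIO-HFD value was in replicate 2. Mup3 was at 307, 187, 78.4 and 209 normalized counts in CON-LFD and at 7.4, 13.3, 19.6 and 4.92 in DIO-HFD (log2 change −4.0 with an SE of 0.67, adjusted P = 0.0602). Mup14 had no read in the DIO-HFD libraries and was at 39.7, 37.1, 3.69 and 58.3 in CON-LFD. Mup17 was the member whose groups overlapped, at 24.3, 6.36, 2.77 and 27.1 normalized counts in CON-LFD and at 0, 3.32, 0 and 0 in DIO-HFD. The median log2 fold change of the family was −4.52, or −4.18 with Mup14 set at a floor of 3 reads per library, and it lay between −5.06 and −4.19 when 1 of the 8 libraries was left out. It was −2.71 with a pseudocount of 10 and −1.55 with the deposited values, so the size of the difference depends on the transformation, and Mup9 was at −4.0 and Mup3 at −1.92 with the deposited values. In the figure of list scores DIO-HFD replicate 2 had the highest score of its group. Because reads of these copies may be divided among them, the values of single members are less certain than the shared direction.

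Paraoxonase 1, encoded by Pon1, is an enzyme of high-density lipoprotein that hydrolyzes lactones and oxidized lipids. Pon1 (GRCm38, chromosome 6, 5168090 to 5193946, minus strand) was at 219, 169.6, 144 and 217 normalized counts in CON-LFD and at 12, 42.1, 33.8 and 62.3 in DIO-HFD, so the lowest CON-LFD library was above the highest DIO-HFD library. It fell (log2 change −2.48 with an SE of 0.38, adjusted P = 0.0454), by 1.39 on the scale of the deposited values. Its neighbor Pon3, also carried on lipoproteins, was at 4686, 5186, 3093 and 5519.6 against 1709, 3687, 4357 and 2915 (log2 change −0.59 with an SE of 0.25, adjusted P = 0.342). Pon3 did not pass the threshold.

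Cacna1e, the pore-forming subunit of an R-type voltage-gated calcium channel, was the protein-coding gene that rose. Cacna1e (GRCm38, chromosome 1, 154390731 to 154884501, minus strand) was at 892, 796, 2749 and 1132 normalized counts in CON-LFD and at 5155, 15847, 10736 and 4896 in DIO-HFD. The nearest values were those of CON-LFD replicate 3 and DIO-HFD replicate 4, and the groups did not overlap (log2 change 2.73 with an SE of 0.39, adjusted P = 0.0454). Of the 18 calcium channel subunit genes tested, 13 were higher and 5 lower, with a median log2 fold change of 0.059 that was −0.077 without CON-LFD replicate 2 and 0.25 without DIO-HFD replicate 2, and Cacna1e was the member past the threshold. Cacna1c, the pore of the L-type channel, was at 1228, 1085, 988 and 1090.3 against 1142, 1393, 1724 and 1314 (log2 change 0.33 with an SE of 0.12, adjusted P = 0.268).

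The other 4 called genes, all higher, were Rpl6l and the predicted genes Gm15432, Gm15725 and Gm15453. The first 3 are copies that resemble other genes, and their sequences were compared with all GENCODE M21 transcripts by BLAST, since reads from a parent gene can be counted on a copy. Gm15432 (chromosome X, 29564014 to 29564208, minus strand) is 195 bases long and matched a transcript of 1810037I17Rik at 192 of 195 positions, and Rpl6l (chromosome 10, 111125851 to 111126721, plus strand) matched Rpl6, which encodes a protein of the large ribosomal subunit, at 860 of 871. The whole of Gm15432 and the 150 bases of Rpl6l with most differences are printed on GRCm38, with capitals where the copy differs from the parent, to show how few positions separate them.
Gm15432, chrX:29564014-29564208: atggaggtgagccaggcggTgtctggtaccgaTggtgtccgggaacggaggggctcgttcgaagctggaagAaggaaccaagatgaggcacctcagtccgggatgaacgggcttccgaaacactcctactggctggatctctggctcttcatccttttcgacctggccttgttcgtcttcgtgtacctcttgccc
Rpl6l, chr10:111126218-111126367: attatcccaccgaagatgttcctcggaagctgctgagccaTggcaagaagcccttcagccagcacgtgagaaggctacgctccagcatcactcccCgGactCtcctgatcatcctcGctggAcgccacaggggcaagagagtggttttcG
Gm15432 was at 0, 20.1, 0 and 0 normalized counts in CON-LFD and at 90.7, 123, 123 and 26.2 in DIO-HFD, and it rose (log2 change 5.2 with an SE of 0.82, adjusted P = 0.0454). Since 3 of the 4 controls had no read, the size of this log2 change depends on the pseudocount, and it was 2.77 with a pseudocount of 10 and 1.66 with the deposited variance-stabilized values. Its parent 1810037I17Rik was at 1745, 2132, 1811 and 2088 normalized counts in CON-LFD and at 1503, 2628, 2279 and 1702 in DIO-HFD, with overlapping groups (log2 change 0.031 with an SE of 0.20, adjusted P = 0.960). Rpl6l was at 1755, 1766, 2431 and 1661 normalized counts in CON-LFD and at 3596, 3116, 2930.4 and 3627 in DIO-HFD and rose (log2 change 0.81 with an SE of 0.13, adjusted P = 0.0454), whereas Rpl6 was at 14585, 13308, 16387 and 12240.0 against 18798, 14024, 12456 and 15653 (log2 change 0.10 with an SE of 0.12, adjusted P = 0.779). Gm15725 (chromosome 16, 37882542 to 37883631, plus strand) lies within the annotated Lrrc58 transcript, with which it shares all of its 1090 bases, and it resembles Actb, cytoplasmic beta-actin, at 92.1% identity. It was at 80.6, 83.8, 200.2 and 147 normalized counts in CON-LFD and at 876, 662, 808 and 578 in DIO-HFD and rose (log2 change 2.59 with an SE of 0.33, adjusted P = 0.0278). Lrrc58 was at 21087, 28322, 16083 and 22911 against 9142, 19279, 17502 and 13435 (log2 change −0.60 with an SE of 0.29, adjusted P = 0.408) and Actb at 141026, 87431, 174435 and 188373 against 230131, 136207, 151329 and 146436 (log2 change 0.19 with an SE of 0.23, adjusted P = 0.778). Actg1, the other cytoplasmic actin, matched at 85.8% identity over 1050 bases and was at 48646, 43298, 47613 and 52174 against 64849, 59771, 70584 and 49146, with overlapping groups (log2 change 0.34 with an SE of 0.12, adjusted P = 0.266). Gm15453, to which GENCODE gave no single position here, was at 199.8, 305, 119 and 199 normalized counts in CON-LFD and at 830.0, 512, 764 and 674 in DIO-HFD and rose (log2 change 1.81 with an SE of 0.28, adjusted P = 0.0454). Lrrc58, Actb, Actg1, Rpl6 and 1810037I17Rik did not pass the threshold. The part of read assignment in this was not tested.

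The 8 calls depended on the fit and on which libraries entered it. The 8 compared libraries alone gave 0 calls, with 1685 genes at an unadjusted P value below 0.05, a fit with the replicate block gave 1 and quantile normalization gave 3. Without CON-LFD replicate 3 there were 128 calls (54 higher and 74 lower), without DIO-HFD replicate 4 there were 6 and without CON-LFD replicate 2 or 4 there were 4 and 2. Without CON-LFD replicate 1 or DIO-HFD replicate 1, 2 or 3 limma made 0 calls, with 1937, 2356, 2969 and 2671 genes at an unadjusted P value below 0.05. Libraries of the weight-loss groups mattered through the shared spread: without DIO-LFD replicates 1 and 2 in turn there were 7 and 4 calls, without its replicates 3 and 4 there were 0, and for DIO-VSG the counts were 0 without replicates 1 and 2 and 1 without replicates 3 and 4. The 8 genes kept their direction in all of these fits. The call was lost in 8 of the 16 fits for Gm15725, in 13 for Cacna1e, Mup9, Mup11, Gm15453 and Gm15432, in 14 for Pon1 and in 15 for Rpl6l.

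Protein-coding genes whose groups did not overlap were also taken in order of P value. The 12 higher genes of this kind with the smallest P values were Cacna1e, called above, and 11 others that did not pass the threshold, with adjusted P values of 0.0602 to 0.167. Cyp26b1, which degrades retinoic acid, was at 440.3, 648, 937 and 863 normalized counts in CON-LFD and at 2288, 2956, 2471 and 1343 in DIO-HFD (log2 change 1.65 with an SE of 0.27, adjusted P = 0.0602). Ehd3, of endosomal recycling, was at 1334, 1235, 2609 and 1870.0 normalized counts in CON-LFD and at 4388, 6471, 7072 and 3092 in DIO-HFD (log2 change 1.57 with an SE of 0.27, adjusted P = 0.0676). Dock8, a guanine nucleotide exchange factor for Cdc42 known from leukocytes, was at 3411, 2872, 7710.2 and 4919.7 normalized counts in CON-LFD and at 13463, 19254, 18508 and 9205 in DIO-HFD (log2 change 1.72 with an SE of 0.31, adjusted P = 0.0676). In these 3 genes, as in Cacna1e, CON-LFD replicate 3 was the highest control. Slc8a1, a sodium-calcium exchanger, was at 195, 188, 284 and 292 normalized counts in CON-LFD and at 494, 861, 1125 and 397 in DIO-HFD (log2 change 1.49 with an SE of 0.32, adjusted P = 0.140). Cux2, a homeobox transcription factor, was at 89.4, 73.1, 59 and 64.3 normalized counts in CON-LFD and at 163, 334, 1125 and 188 in DIO-HFD, with DIO-HFD replicate 3 far above the rest (log2 change 2.2 with an SE of 0.49, adjusted P = 0.167). Differences of below 1 on the log2 scale were held within narrow groups in Gnb4, a G protein beta subunit (0.79), Atp8b2, a phospholipid flippase (0.72), Wscd1 (0.93), A4galt, which makes globotriaosylceramide (0.60), Rbm19, of ribosome biogenesis (0.42), and Itpkb, an inositol trisphosphate kinase (0.51).

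Among the lower protein-coding genes without overlap, the 12 with the smallest P values were Mup9, Mup11, Pon1, Mup3, Mup10 and 7 others with adjusted P values of 0.0751 to 0.139. Cyp2e1, a cytochrome P450 of liver and fat that oxidizes ethanol, acetone and fatty acids, was at 43989, 48476, 42253 and 45445 normalized counts in CON-LFD and at 1580.5, 3967, 6621 and 9703 in DIO-HFD (log2 change −3.33 with an SE of 0.62, adjusted P = 0.0751). The 4 control values lay close together and each was more than 4 times the highest DIO-HFD value. Alb, which encodes serum albumin and is made mainly by the liver, was at 4205, 3135, 1936 and 2065 normalized counts in CON-LFD and at 444, 1238, 1246 and 848 in DIO-HFD (log2 change −1.62 with an SE of 0.34, adjusted P = 0.139). Atl2, which shapes the endoplasmic reticulum, was at 4734, 4830.0, 3804 and 4963 normalized counts in CON-LFD and at 2442, 2773, 3475 and 3196 in DIO-HFD (log2 change −0.63 with an SE of 0.12, adjusted P = 0.0946). Lman2l, a lectin of the secretory pathway, was at 2550.4, 2959.9, 2148 and 2495 normalized counts in CON-LFD and at 1350.1, 1753, 1332 and 1803 in DIO-HFD (log2 change −0.71 with an SE of 0.14, adjusted P = 0.0946). The log2 fold change was −1.55 for Fam19a5, which encodes a secreted chemokine-like protein, −1.88 for Aldoart1, an aldolase retrogene, and −3.62 for Lrtm1. Lrtm1 was at 290.2, 189.8, 78.4 and 122 normalized counts in CON-LFD and at 5.55, 6.64, 10.9 and 38.5 in DIO-HFD, where DIO-HFD replicate 4 stood above the rest of its group.

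**Figure D3:**
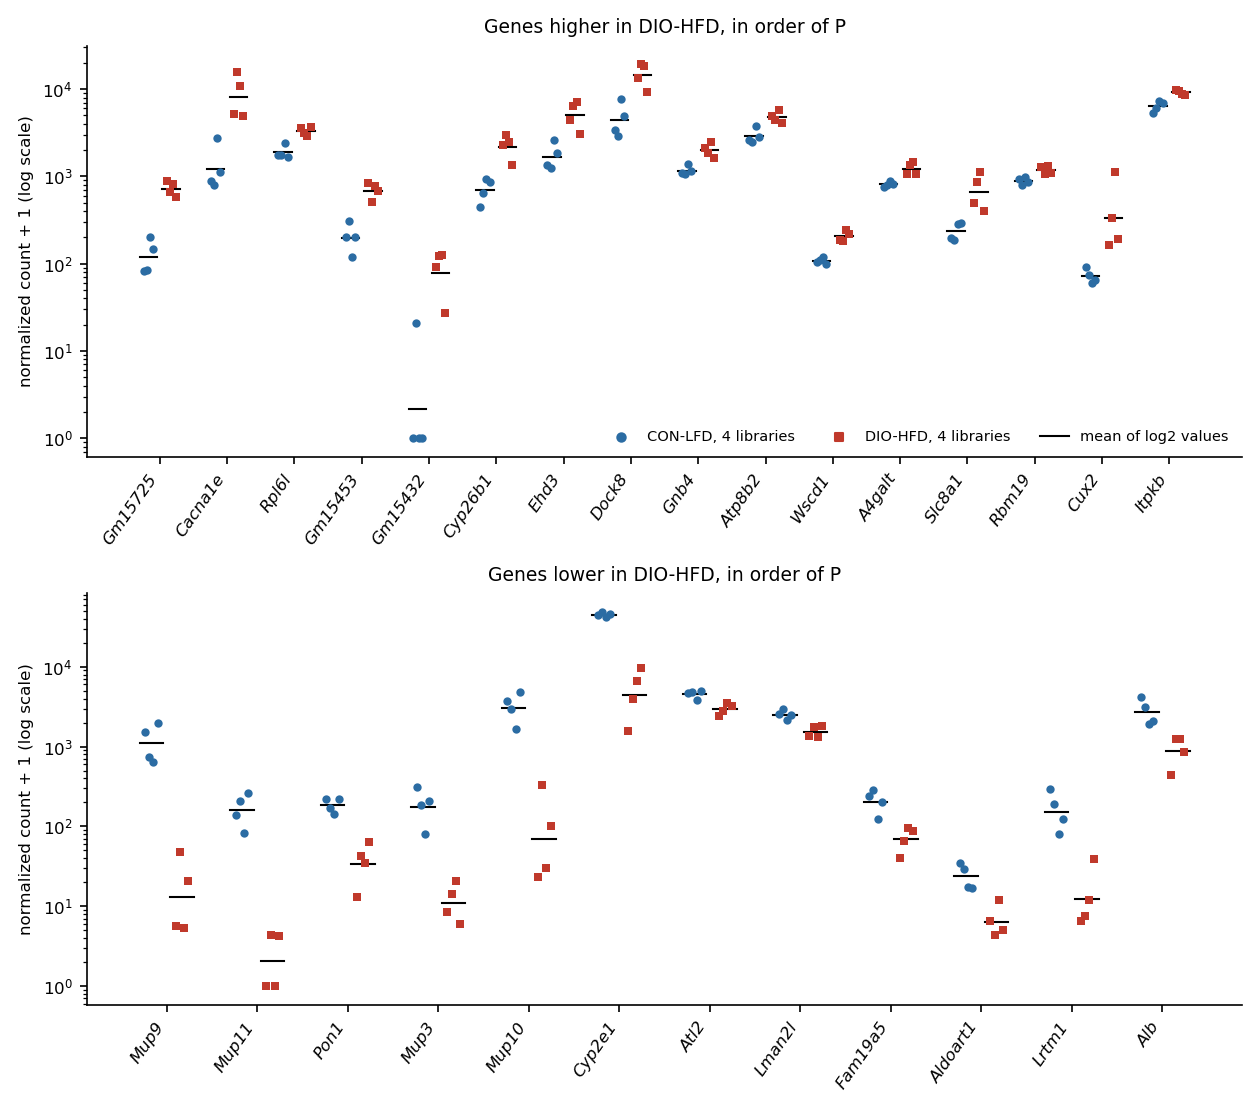
Normalized count plus 1 (log axis) in each of the 4 CON-LFD (circles) and 4 DIO-HFD (squares) libraries for the genes past the adjusted threshold and the 12 protein-coding genes in each direction with non-overlapping groups and the smallest P values, ordered by P; bars are means of the log2 values. The Mup genes and Cyp2e1 show the widest gaps between groups, and Gm15432 and Mup11 reach 0 reads in some libraries.

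Genes of fatty acid synthesis were mostly lower in obese tissue: 11 of 12 members were lower in DIO-HFD, with a median log2 fold change of −1.53. Of these, 8 had an unadjusted P value below 0.05 and 5 had non-overlapping groups, against 7.66% and 3.0% of all genes. None passed the adjusted threshold. Fasn, the fatty acid synthase, was at 474207, 245936, 84150.5 and 226136 normalized counts in CON-LFD and at 10120.4, 23536, 35461 and 20232 in DIO-HFD. The lowest control, replicate 3, was above the highest DIO-HFD library, and the spread among controls was wide (log2 change −3.42 with an SE of 1.02, adjusted P = 0.237). Acaca, the acetyl-CoA carboxylase that makes the malonyl-CoA used by Fasn, was at 74055, 52504, 23297 and 44973 normalized counts in CON-LFD and at 4712, 11639.7, 9778 and 8210.2 in DIO-HFD (log2 change −2.46 with an SE of 0.59, adjusted P = 0.176). Acacb, the mitochondrial carboxylase whose malonyl-CoA restrains fatty acid oxidation, was at 15163, 44532, 8496 and 7525 normalized counts in CON-LFD and at 2187, 3664, 3372 and 4425 in DIO-HFD (log2 change −2.12 with an SE of 0.67, adjusted P = 0.246). Thrsp, a regulator of lipogenesis, was at 22273, 16130.1, 8449.1 and 16363 normalized counts in CON-LFD and at 1228, 3036, 2020.2 and 5863 in DIO-HFD (log2 change −2.53 with an SE of 0.79, adjusted P = 0.246). Acly, which splits citrate into acetyl-CoA, was lower on average (−1.05), but CON-LFD replicate 3 lay inside the DIO-HFD range (26866, 16168, 10345 and 32744 against 9249, 10376, 9809.6 and 8445). CON-LFD replicate 3 was the lowest control for Fasn, Acaca, Thrsp and Acly, and without it the list's median was −1.86. DIO-HFD replicate 1 was the lowest obese library for Fasn, Acaca, Acacb and Thrsp, and without it the median was −1.19.

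Further along the pathway, Scd1, the desaturase that makes oleate and took the largest share of reads in these 8 libraries, was at 3717867, 2682571, 1342739.7 and 2901225 normalized counts in CON-LFD and at 451143, 999504, 1234062 and 807542 in DIO-HFD (log2 change −1.61 with an SE of 0.68, adjusted P = 0.341). Its log2 change was 0 under quantile normalization, which gives the highest gene of each library the same value. Elovl6, which lengthens palmitate, was at 26536, 12962, 3842 and 18618 normalized counts in CON-LFD and at 832, 2559, 1656 and 1209 in DIO-HFD (log2 change −3.12 with an SE of 1.11, adjusted P = 0.267). Of the 13 desaturases and elongases 11 were lower, with a median of −0.59, or −0.35 without DIO-HFD replicate 3, and 3 of the lower genes had non-overlapping groups, against 3.0% of all genes. Of 12 lipogenic transcription factors, 5 were higher and 7 lower, with a median of −0.065 that was 0.078 on the scale of library read totals, −0.0026 without CON-LFD replicate 4 and −0.10 without DIO-HFD replicate 2, and 2 of the lower had non-overlapping groups, against 3.0% of all genes. Srebf1, the sterol regulatory element binding protein of lipogenesis, was at 13582, 14505, 8923 and 14319 normalized counts in CON-LFD and at 5739, 7626, 7174 and 8827 in DIO-HFD (log2 change −0.80 with an SE of 0.19, adjusted P = 0.182). Mlxipl, the carbohydrate-responsive factor ChREBP, was at 5660.3, 7072, 3768 and 5621 normalized counts in CON-LFD and at 1765, 3317, 3598 and 3754 in DIO-HFD (log2 change −0.86 with an SE of 0.32, adjusted P = 0.283). Groups did not overlap for either, whereas Srebf2, which serves cholesterol synthesis, was 0.32 (adjusted P = 0.437) with overlapping groups. Cholesterol synthesis and uptake genes were divided, 10 higher and 12 lower, with a median of −0.02 that was 0.10 without DIO-HFD replicate 1, −0.19 without DIO-HFD replicate 3 and 0.12 on the scale of library read totals.

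Genes that esterify fatty acids followed the same direction. Of the triglyceride synthesis genes, 15 of 15 members were lower in DIO-HFD, with a median log2 fold change of −0.84, and 10 were lower at an unadjusted P value below 0.05, against 7.66% of all genes. Pck1, which supplies glycerol 3-phosphate in fat, was at 149502, 265503, 110149.9 and 142549 normalized counts in CON-LFD and at 38859, 75756, 45560.0 and 61867 in DIO-HFD (log2 change −1.56 with an SE of 0.39, adjusted P = 0.185). Lpin1, the phosphatidate phosphatase lipin, was at 23292, 35586, 16824 and 22558 normalized counts in CON-LFD and at 7464, 8676, 10704 and 12221 in DIO-HFD (log2 change −1.3 with an SE of 0.32, adjusted P = 0.185). Gpd1, which reduces dihydroxyacetone phosphate to glycerol 3-phosphate, was at 64319.7, 73778, 16369.6 and 42897 normalized counts in CON-LFD and at 3359.9, 8576, 26531 and 16065 in DIO-HFD, and DIO-HFD replicate 3 exceeded CON-LFD replicate 3 (log2 change −2.02 with an SE of 0.59, adjusted P = 0.227). Dgat2, which adds the last acyl chain, overlapped in the same way (52395, 49189.5, 21965 and 63074 against 8696, 16445, 44039 and 26373, log2 change −1.11 with an SE of 0.49, adjusted P = 0.360). Mogat1 was −1.06, with non-overlapping groups. Lipolysis and lipid droplet genes were lower in 13 of 14 cases with a median of −0.49, or −0.22 without DIO-HFD replicate 1. In this list 1 of the 14 was lower at an unadjusted P value below 0.05 and none had non-overlapping groups, against 7.66% and 3.0% of all genes. Plin1, which coats the lipid droplet, was at 93088, 100017, 55337 and 102756 against 27815, 78050.5, 75699 and 65094, Lipe, hormone-sensitive lipase, at 74642, 86828, 47229.6 and 85423 against 27574, 71562, 64969 and 58197, and Lpl, which takes up fatty acids from lipoproteins, at 348606, 344232, 180884 and 424600.3 against 90169, 280643, 491292 and 183536. In all 3 genes DIO-HFD replicates 2, 3 and 4 lay above the lowest control, replicate 3, while DIO-HFD replicate 1 lay below all controls.

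**Figure D4:**
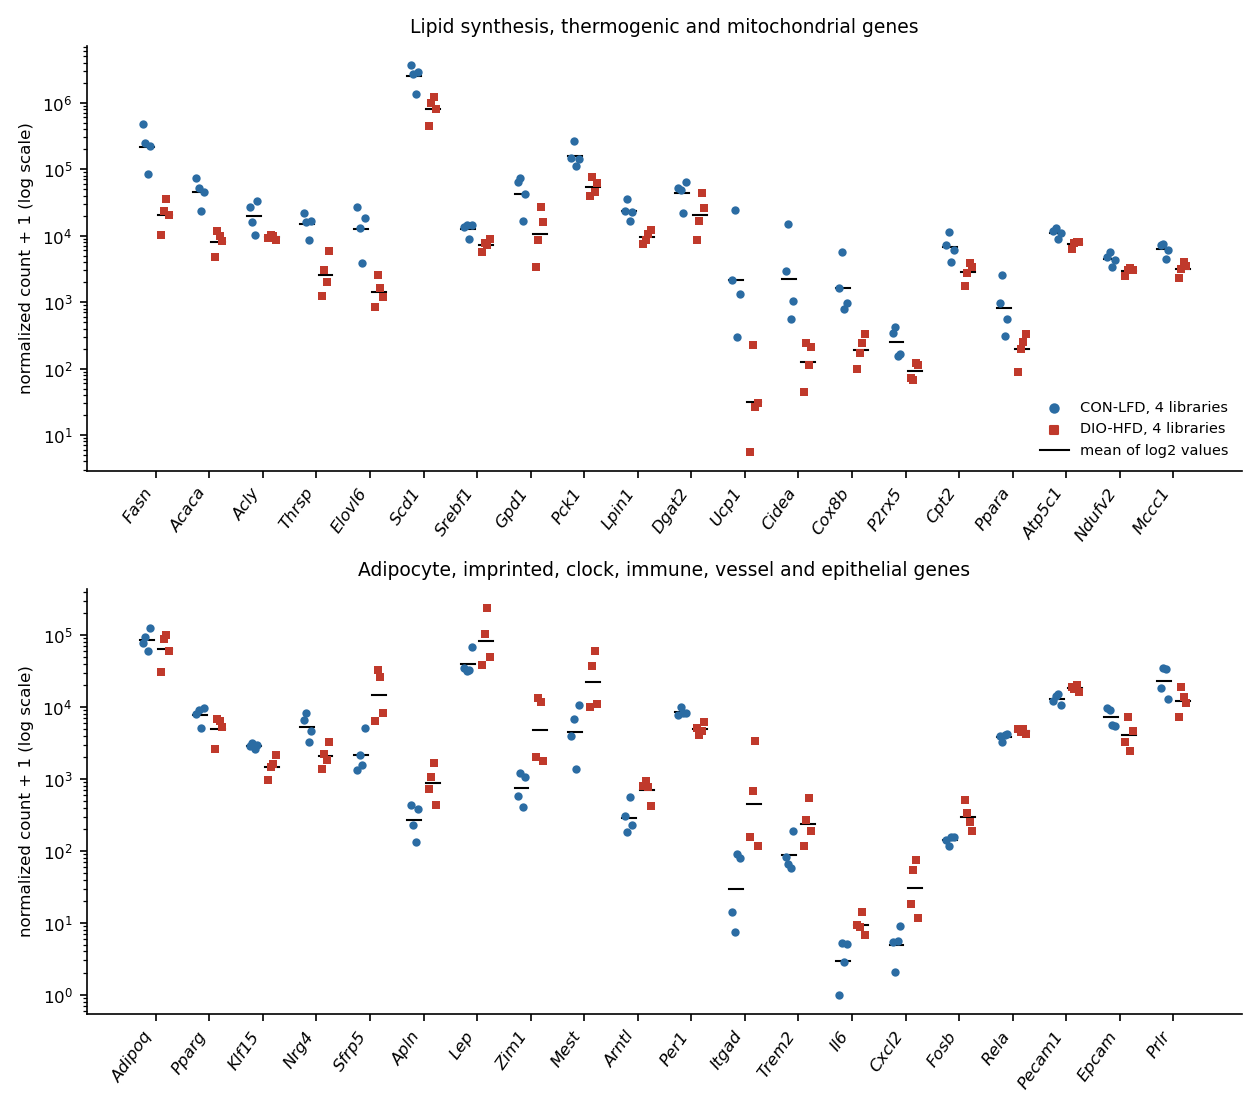
Normalized count plus 1 (log axis) in each of the 4 CON-LFD (circles) and 4 DIO-HFD (squares) libraries for named genes of lipid synthesis, thermogenesis and mitochondria (upper panel) and of adipocytes, imprinting, the clock, immunity, vessels and epithelium (lower panel); bars are means of the log2 values. Fasn, Acaca, Ucp1, Cidea and Cox8b show gaps between groups, whereas Adipoq, Lep and Epcam overlap.

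Genes of thermogenic adipocytes, the beige and brown cells that burn fat, were lower in obese tissue. Of 18 such genes, 17 were lower in DIO-HFD with a median log2 fold change of −1.4, and 4 had non-overlapping groups, against 3.0% of all genes. Ucp1, the uncoupling protein that turns the proton gradient into heat, was at 2182, 24043, 292 and 1343 normalized counts in CON-LFD and at 4.63, 226, 25.1 and 29.5 in DIO-HFD (log2 change −6.07 with an SE of 2.03, adjusted P = 0.254). The controls themselves spanned a wide range, with replicate 2 highest, and each was above each DIO-HFD library. Cidea was at 2916, 14873, 558 and 1040.0 normalized counts in CON-LFD and at 43.5, 242, 111 and 209 in DIO-HFD (log2 change −4.15 with an SE of 1.1, adjusted P = 0.213), Cox8b at 1649.9, 5662, 772 and 982 normalized counts in CON-LFD and at 97.2, 172, 241 and 327 in DIO-HFD (log2 change −3.09 with an SE of 0.76, adjusted P = 0.182) and P2rx5 at 345, 416, 154 and 165 normalized counts in CON-LFD and at 72.2, 66.4, 120.1 and 111 in DIO-HFD (log2 change −1.45 with an SE of 0.34, adjusted P = 0.167). Ppargc1a, the coactivator of mitochondrial biogenesis, overlapped (597, 761, 408 and 479 against 165, 372, 269.6 and 421). Without CON-LFD replicate 2 the median of the list was −1.23 and without replicate 3 it was −1.64.

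Mitochondrial genes were lower more broadly. Of the fatty acid oxidation genes, 21 of 22 members were lower in DIO-HFD, with a median log2 fold change of −0.72 (−0.45 without CON-LFD replicate 2), and 4 had non-overlapping groups, against 3.0% of all genes, among them Cpt2, of the carnitine shuttle (7301, 11274, 4002 and 6030.0 against 1718, 2731, 3818 and 3362, log2 change −1.26 with an SE of 0.31, adjusted P = 0.185). Ppara, the receptor that drives this pathway, was at 959, 2545, 312 and 557 normalized counts in CON-LFD and at 87, 195, 247 and 335 in DIO-HFD (log2 change −2.05 with an SE of 0.67, adjusted P = 0.250). In respiratory complex I 36 of 37 nuclear-encoded subunits were lower (median −0.44, or −0.24 without CON-LFD replicate 2), and in complexes II to V it was 40 of 40 (median −0.51, 30 at an unadjusted P value below 0.05 and 10 non-overlapping, against 7.66% and 3.0% of all genes). Ndufv2 of complex I was at 4808, 5749, 3413 and 4287 against 2472, 3049, 3295 and 3014 and Atp5c1 of the ATP synthase at 11799, 12808, 8781 and 11133 against 6224, 7769, 8131 and 7983, differences of −0.61 and −0.56 on the log2 scale. Uqcrh of complex III was at 6507, 8419, 5359 and 5974 against 4426, 4287, 4005 and 4594. Mitochondrial ribosomal proteins were lower in 68 of 74 cases by a small amount (median −0.15), and Mrps36 was at 824, 1051, 539 and 809.9 against 405, 469, 499 and 422. When read totals instead of size factors set the scale, this median was −0.011. Degradation of branched-chain amino acids, which feeds adipocyte mitochondria, was lower in 18 of 18 genes (median −0.61, or −0.39 without DIO-HFD replicate 1), with 15 at an unadjusted P value below 0.05, against 7.66% of all genes. Bcat2, which takes off the amino group, was at 2907, 2572, 2169 and 2865 normalized counts in CON-LFD and at 1203, 1494, 1824 and 1946 in DIO-HFD. Mccc1, of leucine degradation, was at 7238, 7595, 4426 and 6137 normalized counts in CON-LFD and at 2316, 3107, 4000.0 and 3525 in DIO-HFD (log2 change −0.97 with an SE of 0.23, adjusted P = 0.167). None of these members passed the adjusted threshold, and subunits of a complex are not independent of each other.

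Genes of the mitochondrial genome itself were not analysed here, but 15 nuclear pseudogenes matched their transcripts at 90% identity or more over at least 80% of their length. Gm13341 on chromosome 2 and mt-Co2, a cytochrome c oxidase subunit, are printed over the 120 bases of their alignment with most differences, with capitals where they differ (GRCm38), because reads of the abundant mitochondrial RNA can align to such copies.
Gm13341, chr2:22587411-22587530: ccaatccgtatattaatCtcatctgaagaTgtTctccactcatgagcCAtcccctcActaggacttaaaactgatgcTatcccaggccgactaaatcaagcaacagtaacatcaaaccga
mt-Co2, chrM:7457-7576: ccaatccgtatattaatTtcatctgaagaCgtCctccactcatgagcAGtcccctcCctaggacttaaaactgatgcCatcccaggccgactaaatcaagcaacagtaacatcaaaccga
These 2 sequences shared 656 of 684 aligned positions over their length. Copies on chromosome 1 were closer still: Gm10925 (100% to mt-Atp6), Gm28661 (100% to mt-Co2) and Gm28437 (100% to mt-Co3) cannot be told from the mitochondrial sequence. The 15 pseudogenes were all lower in DIO-HFD, 14 with non-overlapping groups (3.0% of all genes), with a median log2 fold change of −1.6 and −1.86 and −1.39 as the extremes when a library was left out. Together they took 7.98, 11.2, 4.21 and 5.41% of reads in CON-LFD and 2.24, 2.37, 2.52 and 2.83% in DIO-HFD. Each DIO-HFD library was below each control, and CON-LFD replicate 2, the highest for thermogenic genes too, was highest. Gm10222 (100% to mt-Nd4l) was at 118627, 164954, 51741 and 82495 normalized counts in CON-LFD and at 21145, 25943, 30559 and 29149 in DIO-HFD (log2 change −1.85 with an SE of 0.33, adjusted P = 0.0676), and Gm13341 at 379, 632, 229 and 365 normalized counts in CON-LFD and at 99, 114, 115 and 133 in DIO-HFD (log2 change −1.71 with an SE of 0.29, adjusted P = 0.0612). None passed the adjusted threshold, and the fit counts them as 15 genes although they may report the same RNA.

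Of 15 adipocyte markers 14 were lower, with a median of −0.50, and 2 of them reached an unadjusted P value below 0.05 and 1 had non-overlapping groups (7.66% and 3.0% of all genes). Without DIO-HFD replicate 1 the median was −0.19. Pparg, the adipogenic nuclear receptor, was at 7926, 9008, 5036 and 9792 against 2606, 6887, 6413 and 5205 and Adipoq differed by −0.43 (adjusted P = 0.601). Klf15, a glucocorticoid- and fasting-responsive factor of adipocytes, was at 2835, 3136, 2644 and 2969 normalized counts in CON-LFD and at 953, 1488, 1601 and 2139 in DIO-HFD with non-overlapping groups (log2 change −0.96 with an SE of 0.24, adjusted P = 0.186). In insulin signaling 8 genes were higher and 9 lower, and 3 of the lower genes had non-overlapping groups, against 3.0% of all genes. Slc2a4, the insulin-regulated glucose transporter GLUT4, was at 9394, 8783, 5246 and 10427 against 2198, 5447, 5265 and 6089 (log2 change −0.89 with an SE of 0.28, adjusted P = 0.246). Pde3b, the phosphodiesterase through which insulin restrains lipolysis, was at 22087, 29550.4, 15835 and 19683 against 6797, 12122, 12019 and 12822 (log2 change −1.0 with an SE of 0.24, adjusted P = 0.176). Hk2, a hexokinase, was at 7017, 7471, 4313 and 7279 against 2223, 3164, 4954 and 4056 and Socs3, a feedback inhibitor of cytokine and insulin signaling, at 834, 941, 1333 and 851 against 1738, 1704, 1315 and 1186.

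Secreted adipokines went both ways. Nrg4, a neuregulin released by fat, was at 6545, 8257, 3302 and 4615 normalized counts in CON-LFD and at 1374, 2241, 1828 and 3215 in DIO-HFD (log2 change −1.38 with an SE of 0.31, adjusted P = 0.167), all DIO-HFD values being lower. Sfrp5, a secreted Wnt inhibitor, was at 1318, 2151, 1561 and 5084 normalized counts in CON-LFD and at 6451, 32429, 26091 and 8226 in DIO-HFD (log2 change 2.74 with an SE of 0.78, adjusted P = 0.220), all higher. Apln, the peptide apelin, was at 434, 225, 130.1 and 385 normalized counts in CON-LFD and at 736, 1075, 1659 and 438 in DIO-HFD (log2 change 1.72 with an SE of 0.50, adjusted P = 0.227), again without overlap but with DIO-HFD replicate 4 just above the highest control. Lep, leptin, which follows fat mass, was at 34589, 31744, 32586 and 67714 normalized counts in CON-LFD and at 37881, 103689, 237534 and 49364 in DIO-HFD, and the groups overlapped because DIO-HFD replicates 1 and 4 were within the control range (log2 change 1.06 with an SE of 0.61, adjusted P = 0.484). Igfbp3, which binds insulin-like growth factors and was listed with the growth hormone and IGF axis, was at 4414, 2478, 3825 and 3048 normalized counts in CON-LFD and at 4705, 14364, 13325 and 5941 in DIO-HFD (log2 change 1.35 with an SE of 0.64, adjusted P = 0.398), all higher. Of the 15 genes of that list tested, 7 were higher and 8 lower, 1 of the higher without overlap, against 1.76% of all genes. Their median was −0.061, −0.14 without DIO-HFD replicate 2 and 0.11 without CON-LFD replicate 4. Of the 17 adipokine genes tested, 2 were higher and 2 lower without overlap, against 1.76% and 3.0% of all genes.

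Imprinted genes are expressed from 1 parental copy, and some of them are known to follow the expansion of fat. Zim1 was at 585, 1199, 409 and 1060.1 normalized counts in CON-LFD and at 2011, 13397, 11697 and 1783 in DIO-HFD (log2 change 2.71 with an SE of 0.76, adjusted P = 0.217). Mest, which is used as a marker of that expansion, was at 3934, 6728, 1376 and 10790.0 normalized counts in CON-LFD and at 10041, 37143, 60171 and 11099 in DIO-HFD (log2 change 2.33 with an SE of 1.04, adjusted P = 0.368) and Peg3, a zinc finger gene next to Zim1, at 7395, 20829, 6041 and 12126 normalized counts in CON-LFD and at 16805, 84105, 81311 and 18394 in DIO-HFD (log2 change 1.89 with an SE of 0.73, adjusted P = 0.303). In each of the 3 genes DIO-HFD replicates 2 and 3 were several times above replicates 1 and 4. Over the 15 imprinted genes 6 were higher and 9 lower, 4 of the higher had an unadjusted P value below 0.05 (5.23% of all genes) and the median was −0.086, which was 0.15 without DIO-HFD replicate 1, −0.28 without CON-LFD replicate 3 and 0.057 on the scale of library read totals, so the list as a whole had no shared direction. Peg10 was at 484, 488, 397 and 1424 against 1019.7, 12896, 10106 and 1056.

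Most clock genes were lower. Arntl, the activator BMAL1, was at 301, 180.2, 558 and 229 normalized counts in CON-LFD and at 804, 927, 768 and 421 in DIO-HFD (log2 change 1.28 with an SE of 0.34, adjusted P = 0.206), with CON-LFD replicate 3 above DIO-HFD replicate 4. Among the repressors and outputs it controls, Per1 was at 7776, 9956, 8182 and 8153 normalized counts in CON-LFD and at 5173, 4055, 4696 and 6181 in DIO-HFD (log2 change −0.77 with an SE of 0.26, adjusted P = 0.257), Ciart at 486, 561, 367 and 591 against 226, 155, 171 and 365 and Bhlhe41 at 8864, 10104, 6478 and 6138 against 3631, 5660.5, 3036 and 5099, without overlap in these 3 genes. Over all genes 3.0% were lower without overlap, and for Ciart the gap was narrow (367 against 365). Of 19 clock genes 16 were lower, with a median of −0.48, 9 of them at an unadjusted P value below 0.05, against 7.66% of all genes. The hour of tissue collection is not given in the sources used here, and its part in this was not tested.

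Hormone and stress genes showed single differences. Adrb1, the beta-1 adrenergic receptor, was at 477, 789.8, 542 and 434 against 193, 449, 259 and 349.9 (log2 change −0.87 with an SE of 0.25, adjusted P = 0.220), and Adrb3, the beta-3 receptor of adipocytes, at 10809, 13831, 8599 and 12701 against 3631, 6986, 1640.4 and 8974, where DIO-HFD replicate 4 was within the control range (log2 change −1.36 with an SE of 0.57, adjusted P = 0.338). Prlr, the prolactin receptor, was at 18399, 35122, 34272 and 13063 against 7188, 18775, 13923 and 11530.3 (log2 change −0.93 with an SE of 0.36, adjusted P = 0.307). In the antioxidant response 6 genes were higher and 10 lower. Cat, catalase, was at 52020.1, 75273, 41625 and 56272 normalized counts in CON-LFD and at 19569, 36038, 39367 and 29937 in DIO-HFD (log2 change −0.87 with an SE of 0.22, adjusted P = 0.186). Gsta4, which detoxifies lipid aldehydes, was at 1109, 1623, 762 and 962 against 305, 589, 372 and 743 (log2 change −1.18 with an SE of 0.32, adjusted P = 0.215). The unfolded protein response had 14 of 18 genes higher by little (median 0.065, 0.026 without DIO-HFD replicate 2 and 0.13 without DIO-HFD replicate 4).

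Inflammatory genes were higher on average, with few members whose groups separated. Lipid-associated macrophages, which take up lipid in obese fat, had 11 of 14 genes higher and a median of 0.60. Without CON-LFD replicate 2 it was 0.32 and without CON-LFD replicate 4 it was 0.92. Itgad, an integrin subunit of such macrophages, was at 13.2, 6.36, 90.4 and 79.4 normalized counts in CON-LFD and at 153, 685, 3424 and 117 in DIO-HFD (log2 change 3.94 with an SE of 1.08, adjusted P = 0.215), the 1 member without overlap, against 1.76% of all genes. Trem2, the lipid-sensing receptor that defines them, was at 81.7, 64.7, 57.2 and 188 against 118, 268, 547 and 188 (log2 change 1.45 with an SE of 0.58, adjusted P = 0.316). Resident macrophage genes were higher in 12 of 16 cases (median 0.24), but the median was −0.20 without CON-LFD replicate 2 and 0.61 without CON-LFD replicate 4. Among cytokines, 14 of 16 members were higher in DIO-HFD, with a median log2 fold change of 0.46 that was 0.21 without DIO-HFD replicate 1 and 0.23 without CON-LFD replicate 2, and 3 had non-overlapping groups, against 1.76% of all genes. Il6 was at 0, 4.24, 1.84 and 4.02 normalized counts in CON-LFD and at 8.33, 7.75, 13.1 and 5.74 in DIO-HFD, close to the floor of 3 reads in the controls (log2 change 1.67 with an SE of 0.60, adjusted P = 0.270). Csf1, the macrophage growth factor, was at 3850.4, 2051, 3795 and 4208 against 4495, 5231, 4708 and 4466. Of 24 chemokine genes tested, 20 were higher (median 0.37, 0.033 without DIO-HFD replicate 1 and 0.058 without CON-LFD replicate 2). Cxcl2, which attracts neutrophils, was at 4.41, 1.06, 4.61 and 8.04 normalized counts in CON-LFD and at 17.6, 53.1, 74.2 and 10.7 in DIO-HFD (log2 change 2.65 with an SE of 0.93, adjusted P = 0.265). Ccl7, which attracts monocytes, was at 140.2, 43.5, 102 and 201 against 196, 736, 939 and 149, with DIO-HFD replicates 2 and 3 highest.

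NF-kB genes were higher in 12 of 14 cases, with a median of 0.26, which was 0.013 without DIO-HFD replicate 1 and 0.42 without CON-LFD replicate 3. Rela, the p65 subunit, was at 3965, 3241, 4141 and 4169 normalized counts in CON-LFD and at 4964, 4506, 4906 and 4264 in DIO-HFD (log2 change 0.27 with an SE of 0.092, adjusted P = 0.262). Immediate early genes, which respond within minutes to stimuli and to handling of tissue, were higher in 21 of 23 cases (median 0.40). Fosb was at 142, 118, 157 and 154 normalized counts in CON-LFD and at 503, 333, 253 and 189 in DIO-HFD (log2 change 1.07 with an SE of 0.31, adjusted P = 0.227) and Junb at 2372, 2412, 2608 and 2538 against 3692, 3914, 3081 and 2753 (log2 change 0.42 with an SE of 0.16, adjusted P = 0.293), both without overlap, against 1.76% of all genes in the higher direction. In the complement system 11 of 13 genes were higher (median 0.28, 0.030 without CON-LFD replicate 2 and 0.67 without CON-LFD replicate 4). None had non-overlapping groups, against 1.76% of all genes in the higher direction. Cfb, a factor of the alternative pathway, was at 7296, 7443, 11772 and 11233 against 13093, 15233, 17446 and 11500.0, with overlapping groups (log2 change 0.62 with an SE of 0.17, adjusted P = 0.215). Interferon-stimulated genes had 16 of 21 higher and a median of 0.11, 0.0017 without CON-LFD replicate 1 and 0.31 without CON-LFD replicate 3. T cell, B cell, plasma cell and lymph node lists were higher in 17 of 17, 13 of 13, 9 of 11 and 8 of 9 genes. Their medians were 0.64, 1.09, 0.90 and 0.69, and each changed sign when 1 library was left out, to −0.31 for T cells without DIO-HFD replicate 1 and, without CON-LFD replicate 2, to −0.19 for B cells, −0.30 for plasma cells and −0.29 for the lymph node. No member of these 4 lists had non-overlapping groups, against 1.76% of all genes in the higher direction. With a lymphoid score as a covariate, the medians for cytokines and chemokines were 0.27 and 0.07, and that for NF-kB genes 0.11.

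Matrix and vessel genes were higher on average, and Pecam1 was the member of these lists whose groups did not overlap, where 1.76% of all genes were higher without overlap. Matricellular genes were higher in 13 of 17 cases (median 0.41, 0.15 without CON-LFD replicate 2 and 0.63 without CON-LFD replicate 4), and matrix proteases, their inhibitors and crosslinkers in 17 of 20 (median 0.36, 0.10 without CON-LFD replicate 2 and 0.65 without CON-LFD replicate 4). Thbs1, thrombospondin 1, was at 9756, 6956, 13472 and 11573 normalized counts in CON-LFD and at 34443, 72586, 39863 and 11589 in DIO-HFD (log2 change 1.69 with an SE of 0.63, adjusted P = 0.283), DIO-HFD replicate 4 lying within the controls. Mmp12, the elastase of macrophages, was at 113, 242, 135 and 607 against 403, 951, 1795 and 355 (log2 change 1.69 with an SE of 0.59, adjusted P = 0.265). In the list of blood and lymph vessels 12 of 17 genes were higher and 5 lower, with a median of 0.30 (0.19 without DIO-HFD replicate 3 and 0.44 without DIO-HFD replicate 1), and 2 in each direction had an unadjusted P value below 0.05, against 5.23% and 7.66% of all genes. Collagens were higher in 13 of 17 cases, but by a median of 0.14 that was −0.056 without CON-LFD replicate 3 and 0.46 without CON-LFD replicate 4. Pecam1, of endothelial junctions, was at 12030.3, 14346, 15028 and 10653 normalized counts in CON-LFD and at 18997, 17866, 20159.5 and 15992 in DIO-HFD without overlap (log2 change 0.50 with an SE of 0.19, adjusted P = 0.306), and Angpt2, which loosens vessels, at 679.8, 493, 542 and 493 against 794, 906, 1168 and 645 (log2 change 0.65 with an SE of 0.20, adjusted P = 0.244).

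Luminal epithelium, the milk-secreting lining of the ducts, was lower in 15 of 15 genes, with a median of −0.80 that stayed between −0.99 and −0.59 when a library was left out. Of these, 9 had an unadjusted P value below 0.05 and none had non-overlapping groups, against 7.66% and 3.0% of all genes. Krt18, a luminal keratin, was at 12372, 19098, 14081 and 9067 normalized counts in CON-LFD and at 5269, 10686, 6534 and 7635 in DIO-HFD (log2 change −0.86 with an SE of 0.29, adjusted P = 0.257), and Cdh1, E-cadherin, at 8882, 10129, 5405 and 6743 against 2655, 7602, 3264 and 5332 (log2 change −0.81 with an SE of 0.28, adjusted P = 0.266). DIO-HFD replicate 2 lay within the control range for these genes and for Epcam. Basal epithelium had 4 of 6 genes lower (median −0.27), a median that was 0.014 without DIO-HFD replicate 3 and −0.55 without DIO-HFD replicate 2. Skeletal muscle genes were lower in 19 of 20 cases with a median of −1.55, which was −0.83 without CON-LFD replicate 4, and keratinocyte genes were higher in 8 of 10 with a median of 1.43, which was 0.29 without DIO-HFD replicate 4. Without these 2 libraries the median was −4.06 for the Mup genes, −1.4 for fatty acid synthesis, −1.7 for thermogenic genes and 1.04 for lipid-associated macrophages. Cytosolic ribosomal proteins were higher in 67 of 78 cases by a median of 0.16, 15 of them at an unadjusted P value below 0.05, against 5.23% of all genes, and Rpl27 was at 1043, 1069, 1345 and 597 against 2074, 1401, 1597 and 1631. The ribosomal score was −0.22, −0.29, 0.073 and −0.40 in CON-LFD and 0.38, −0.16, −0.30 and 0.032 in DIO-HFD, highest in each group in the library with the highest T cell score. The median was 0.084 with the lymphoid score as a covariate and 0.31 on the scale of library read totals. It was 0.035 without DIO-HFD replicate 1 and 0.27 without DIO-HFD replicate 3.

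**Figure D5:**
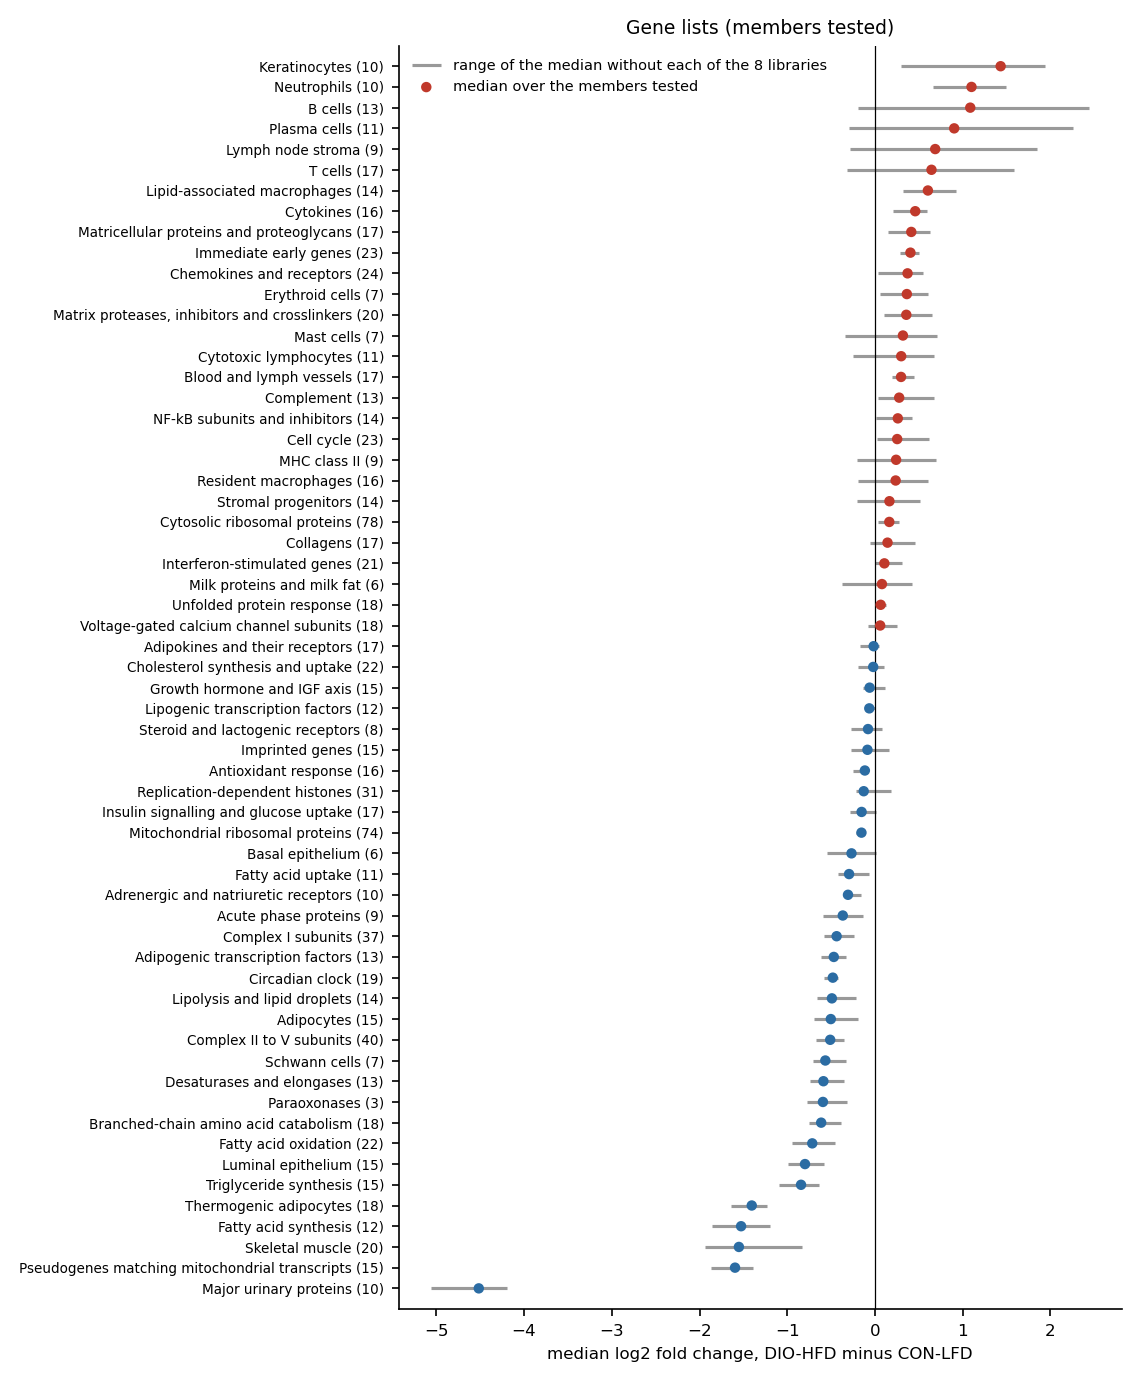
Median log2 fold change of DIO-HFD minus CON-LFD over the tested members of each of 60 gene lists (points, with the number of members in parentheses) and the range of that median when each of the 8 libraries was left out in turn (gray lines). The Mup genes lie lowest; the lines of the lymphoid lists cross 0, whereas those of fatty acid synthesis, triglyceride synthesis, thermogenic and mitochondrial lists do not.

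The groups that lost weight give a reference for the levels of the called genes; each of these comparisons shares the DIO-HFD libraries with the comparison above, and none of the called genes passed the adjusted threshold in them. Mup9 was at 311 ± 243 in DIO-LFD and 168 ± 127 in DIO-VSG (mean ± SD, n = 4 each), beside 1222 ± 645 in CON-LFD and 18.8 ± 19.8 in DIO-HFD, and DIO-HFD differed by −3.87 against DIO-LFD (adjusted P = 0.317) and −3.41 against DIO-VSG (adjusted P = 0.246) on the log2 scale. Mup11 was at 173 ± 164 in DIO-LFD and 34.4 ± 17.1 in DIO-VSG, beside 172 ± 77.7 in CON-LFD and 1.65 ± 1.9 in DIO-HFD, and DIO-HFD differed by −5.45 against DIO-LFD (adjusted P = 0.296) and −3.93 against DIO-VSG (adjusted P = 0.243). Cacna1e was at 1644 ± 293 in DIO-LFD and 2419 ± 343 in DIO-VSG, and DIO-HFD differed by 2.32 against DIO-LFD (adjusted P = 0.296) and 1.75 against DIO-VSG (adjusted P = 0.243). Pon1 was at 108 ± 27.6 in DIO-LFD and 36.6 ± 6.49 in DIO-VSG, beside 187 ± 36.8 in CON-LFD and 37.5 ± 20.8 in DIO-HFD, and DIO-HFD differed by −1.67 against DIO-LFD (adjusted P = 0.296) and −0.16 against DIO-VSG (adjusted P = 0.846). The 4 called genes that are predicted or resemble other genes had means in both weight-loss groups above the CON-LFD mean. Gm15725 was at 755 ± 85.6 in DIO-LFD and 520.2 ± 239 in DIO-VSG and Rpl6l at 2879 ± 166 in DIO-LFD and 2932 ± 367 in DIO-VSG. Gm15453 was at 560.3 ± 143 in DIO-LFD and 430.2 ± 112 in DIO-VSG and Gm15432 at 119.9 ± 23.3 in DIO-LFD and 56.5 ± 12.8 in DIO-VSG. Fasn was at 427780.1 ± 324428 in DIO-LFD and 410779 ± 241476 in DIO-VSG, and DIO-HFD differed by −3.55 against DIO-LFD (adjusted P = 0.424) and −3.91 against DIO-VSG (adjusted P = 0.246). Zim1 was at 2365 ± 2986 in DIO-LFD and 752 ± 78.7 in DIO-VSG.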

How the data were processed

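RNA-Seq libraries of the mammary fat pad were compared between 4 CON-LFD and 4 DIO-HFD mice, and all 16 libraries of the series entered the fit. The deposited values are log2 variance-stabilized counts that, per the study's methods, the authors made with DESeq2 after removing genes with few counts. The methods name STAR and salmon with GENCODE transcripts, whereas the submitters' processing notes list TopHat2 (2.0.7) and HTSeq (0.5.3p9) on mm10. The table held 23179 genes and no column without a sample. The design had assumed normalized counts, so each value was converted back from the transformed scale. This gave whole reads for 100% of the values (tolerance 0.05) and size factors of 0.90 to 1.22, and normalized counts are those reads divided by the size factor. Each column carries its own animal number, and replicates are single fat pads.

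The 21218 genes that reached 10 normalized counts in 4 or more libraries were tested with limma (3.58.1, R 4.3.3, trended variances) on log2(normalized count + 1), with group as the only term and Benjamini-Hochberg adjustment over all genes tested at 0.05. The log2 scale with a pseudocount of 1 understates the change of low genes. On simulated data for this comparison, with 200 of the 21218 genes changed, 64% of changes of 1.5 and 95% of changes of 3 on the log2 scale were recovered. In the same simulation 8 unchanged genes were also called. The simulated noise was drawn for each gene on its own, without the differences between libraries that many genes share. These percentages therefore do not give the share of real changes that was found. Depth was 46907377 to 57610899 reads per library, and the errors given are those between libraries, which include counting error. Named genes are those past the threshold, the 12 protein-coding genes in each direction with non-overlapping groups and the smallest P values, and, in each of 60 lists, preset key members and up to 3 others by P value. A few further members and the genes that the called copies resemble were named after their values were seen. Members and lists were chosen with earlier results of these data known. Symbols were matched to GENCODE M21 (GRCm38), which placed 95.7% of them at 1 position, and copies were searched with BLAST (2.17.0). Alternatives were other filters, pseudocounts, scalings and fits, and leaving out each library. Promoters came from RefSeq for GRCm38.p6.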

Additional observations from a re-analysis of the deposited data

Results flagged for a closer look

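In each group of 4, the highest and lowest library were compared with the others for 60 list scores and the leading genes, in 176 groups, and a library was listed where its gap to the nearest other exceeded Dixon's 95% critical share of the range. Chance lists about 1 group in 20, and 11 were listed here. For desaturases and elongases CON-LFD replicate 3 was lowest in its group at a score of −0.44, and DIO-HFD replicate 1 at −1.10. The same libraries were lowest for lipogenic transcription factors, at −0.17 and −0.35. DIO-HFD replicate 1 was also lowest for paraoxonases at −1.25. DIO-HFD replicate 2 was highest for interferon-stimulated genes at 0.34 and for skeletal muscle at −1.0. CON-LFD replicate 1 was highest for replication-dependent histones at 0.34. Among single genes, Rpl6l was at 2431 normalized counts in CON-LFD replicate 3, Gm15432 at 20.1 in CON-LFD replicate 2, where the other controls had no read, and Lrtm1 at 38.5 in DIO-HFD replicate 4.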

How the results depend on the processing

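The 8 calls were sensitive to the fit, whereas the directions of the called genes were the same under the 28 alternatives (27 for the 4 predicted genes and copies, which 1 alternative leaves out). The adjusted count was 19 with library-total scaling, 3 with quantile normalization, 0 with the 8 libraries alone, 4196 with array weights, 16 with a lymphoid score as covariate and 0 without predicted genes and pseudogenes. It was 7 or 8 under the other filters, the pseudocount of 10 and the deposited values. When 1 library was left out it ranged from 0 (without CON-LFD replicate 1, among others) to 128 (without CON-LFD replicate 3). The unadjusted count of 2735 became 1685 with the 8 libraries alone and 7949 with array weights, and ranged from 1809 (without CON-LFD replicate 2) to 4178 (without CON-LFD replicate 3). The count of genes with non-overlapping groups, 1011, became 656 without predicted genes and pseudogenes and ranged from 1240 to 3055 without 1 of the 8 libraries, where fewer libraries make overlap rarer. Without CON-LFD replicate 4 and DIO-HFD replicate 4 together, an alternative chosen after seeing the data, limma made 0 calls, with 2698 genes below 0.05 before adjustment and 2595 without overlap. The replicate numbers are only names: same-numbered libraries correlated at 0.27, 0.53, −0.61 and −0.33, and 1 of 4 numbers was matched best by its own. A fit with the replicate block gave 1 adjusted call and 2550 unadjusted. Library-total scaling raised the median of all genes from 0.021 to 0.16 and turned the splits of unadjusted and of non-overlapping genes, given in the report, to mostly higher.

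Genes that changed sign were named as parents of copies. 1810037I17Rik was at −0.094 with array weights and ranged from −0.11 to 0.16 without 1 library, Actb from −0.038 to 0.33 and Rpl6 from −0.0065 to 0.19. Of the 60 list medians, 20 changed sign without 1 library and 8 with library-total scaling. Other settings changed signs too. With array weights they included cell cycle (0.25 to −0.55) and collagens (0.14 to −0.23). With the lymphoid score they included T cells (0.64 to −0.13) and MHC class II (0.24 to −0.082). Among 128 genes and 60 lists, the log2 change or median moved by more than 1.5 times in 32 and 32 with array weights, 15 and 10 with the deposited values, 7 and 2 with a pseudocount of 10, 4 and 26 with library-total scaling and 5 and 21 with the lymphoid score. The cause was not tested. Depth limited genes near the floor of 3 reads in 1 or both groups, among them the called genes Mup11 (DIO-HFD), Gm15432 (CON-LFD) and, in some DIO-HFD libraries, Mup9, and also Aldoart1, Il6, Cxcl2, Mup14 and Mup17.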

Other observations

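Keratin, muscle and lymphoid genes aside, a few other groups had values not described above. Erythroid genes were higher in 7 of 7 cases (median 0.36, 0.061 without CON-LFD replicate 3 and 0.60 without CON-LFD replicate 2). Schwann cell genes were lower in 6 of 7 (median −0.57, −0.33 without DIO-HFD replicate 3 and 0.010 with array weights). Neither list had a member with non-overlapping groups, against 1.76% of all genes higher and 3.0% lower. Cell cycle genes were higher in 19 of 23 cases (median 0.25, 0.026 without DIO-HFD replicate 3 and 0.62 without CON-LFD replicate 1), and none had an unadjusted P value below 0.05, against 5.23% of all genes in the higher direction. With array weights the cell cycle median changed sign, to −0.55. Milk protein and milk fat genes were higher in 4 of 6 cases, with a median of 0.079 that was −0.37 without DIO-HFD replicate 1 and 0.42 without DIO-HFD replicate 3. Acute phase genes were lower in 5 of 9 cases (median −0.37, −0.14 without DIO-HFD replicate 2 and −0.60 without DIO-HFD replicate 1).

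The highest point in the plot of all genes is AY036118, a long noncoding RNA gene on chromosome 17 named here after its values were seen. AY036118 averaged 2292 ± 4585 normalized counts (SD, n = 4) in CON-LFD, all of it from replicate 3, and 16289.5 ± 7214 in DIO-HFD, where reads were present in all 4 libraries. The groups did not overlap, and the gene did not pass the threshold in limma (adjusted P = 0.274). Its fitted log2 change depends on the pseudocount, since 3 of the 4 controls had no read.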
